A study of Mus musculus with 47 samples.

Results

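The 10 genes described here are Trem2, Tyrobp, Cst7, Itgax, Clec7a, Apoe, Cd68, Axl, Gpnmb and Spp1, members of the disease-associated microglia (DAM) program. They were taken by name from tables of expected counts for 55416 gene identifiers, and each was found in the male and in the female table. The RNA came from brains of 3xTg mice of both sexes, a model of Alzheimer's disease that carries mutant human APP and tau transgenes driven by a neuronal Thy1 promoter element. Feeding began at 6 months of age and lasted 9 months. The Control group received a diet defined by its amino acids, and the IleR, LeuR and ValR groups received the same kind of diet restricted in isoleucine, leucine or valine. Every library came from a 3xTg mouse, so no library without the transgenes is part of these comparisons. Control had 4 male and 6 female libraries, IleR 3 and 5, LeuR 3 and 6, and ValR 4 and 6. A name such as IleR 13 joins the diet with the number that the label gives the library. Total counts ran from 12682663 to 25722301 in males and from 10672583 to 21370968 in females. A p-value for a difference between groups sets that difference against the spread between these libraries, each of which has its own number in the labels.

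Microglia, the resident macrophages of the brain, carry a homeostatic program of surface receptors such as P2ry12 and Tmem119. Near amyloid plaques and damaged cells they lower that program and turn on the DAM genes, at first partly without and then with signals through the receptor TREM2 and its adaptor TYROBP. The program holds lipid handling, phagocytic and lysosomal genes. The 10 genes fall into receptors and their adaptor (Trem2, Tyrobp, Clec7a, Itgax and Axl), the lipid carrier Apoe, lysosomal proteins (Cd68, Cst7 and Gpnmb) and the secreted protein Spp1. RNA was taken from bulk tissue of the left hemisphere, so fewer cells of a type and less RNA per cell cannot be told apart in any value below.

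Levels are given as CPM, the counts of a gene relative to all counts of its library, scaled by TMM factors over all 37 libraries. Between genes they can be compared only per kilobase of annotated exon. On the scale of CPM per kb in male Control libraries, Apoe stood at 656 ± 82.6 (SD, n = 4), above all the others. Tyrobp followed at 16.4 ± 5.14, Spp1 at 11.8 ± 8.53, Axl at 11.7 ± 0.977 and Cd68 at 8.61 ± 2.75 CPM per kb. Tyrobp and Spp1, and Spp1 and Axl, differed by less than their spread, while Axl and Cd68 lay further apart than either SD. Cst7 at 2.87 ± 1.67, Trem2 at 2.65 ± 0.470 and Clec7a at 1.43 ± 0.592 CPM per kb came next, and the lowest were Gpnmb at 0.802 ± 0.227 and Itgax at 0.483 ± 0.236 CPM per kb. Cst7 differed from Trem2 and from Clec7a by less than its own SD. The exon length joins all annotated transcripts of a gene, 4946 bases for Trem2, so a level per kb depends on how many transcripts are annotated. The Clec7a locus is listed as a polymorphic pseudogene in GENCODE M21, and the other 9 genes as protein coding.

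Gpnmb and Spp1 were the members that passed the adjusted threshold in males under all 3 restricted diets, and their stretches of DNA before the start are shown for that reason. That of the receptor gene Trem2, which passed under none of the 3, is shown beside them. Each run holds the 250 bases before a RefSeq start on the plus strand of GRCm38.p6. Capitals mark the letters GAGGAAG or their reverse complement, a core bound by ETS family factors such as PU.1, the master regulator of macrophage genes.
Trem2, chr17:48346151-48346400: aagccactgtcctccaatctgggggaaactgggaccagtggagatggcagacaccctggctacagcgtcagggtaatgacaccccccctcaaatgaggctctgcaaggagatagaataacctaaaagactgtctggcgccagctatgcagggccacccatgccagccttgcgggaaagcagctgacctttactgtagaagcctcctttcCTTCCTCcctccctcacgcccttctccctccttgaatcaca
Gpnmb, chr6:49036268-49036517: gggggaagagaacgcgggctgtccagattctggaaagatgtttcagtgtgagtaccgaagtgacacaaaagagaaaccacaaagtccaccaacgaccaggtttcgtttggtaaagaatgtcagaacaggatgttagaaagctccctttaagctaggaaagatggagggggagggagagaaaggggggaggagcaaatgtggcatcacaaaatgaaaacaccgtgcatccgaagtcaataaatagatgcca
Spp1, chr5:104434861-104435110: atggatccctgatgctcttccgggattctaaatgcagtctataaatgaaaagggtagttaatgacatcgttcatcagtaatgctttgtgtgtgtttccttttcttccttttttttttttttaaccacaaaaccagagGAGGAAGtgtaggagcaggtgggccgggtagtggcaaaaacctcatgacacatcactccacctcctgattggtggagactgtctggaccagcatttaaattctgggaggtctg

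Windows were found for 9 of the 10 genes, with Tyrobp the exception, and made 13 windows in all. The letters GAGGAAG, searched on both strands, occurred in 3 of the 13 windows, those of Trem2, of Axl and of the first start of Spp1, and in 10.6% of the 32851 windows of the same length in the table. Counted from the start, the matches began at base -41 of Trem2, -131 of Axl and -113 of Spp1. CACGTG and TCATGTG, the E-box and M-box cores of the MITF and TFEB factors that act on lysosomal genes, were in none of the 13 windows, Gpnmb included, and in 6.02% and 3.25% of all windows. A match is a run of letters and no proof of binding, and the absence of one holds only for this window.

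In males every one of the 10 genes had a log2 fold change above 0 against Control under each restricted diet. With edgeR's quasi-likelihood test and Benjamini-Hochberg adjustment over 22197 genes, 4 of the 10 rose under IleR, 3 under LeuR and 3 under ValR, and none fell. Of all genes tested, 6.63% rose under IleR, 3.81% under LeuR and 11.1% under ValR. The median log2 fold change of the 10 genes was 1.13, 0.69 and 0.73 in that order, beside 0.04, 0.05 and 0.03 over all genes tested. The 3 comparisons share the 4 Control libraries, so their likeness is partly built in.

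**Figure D1:**
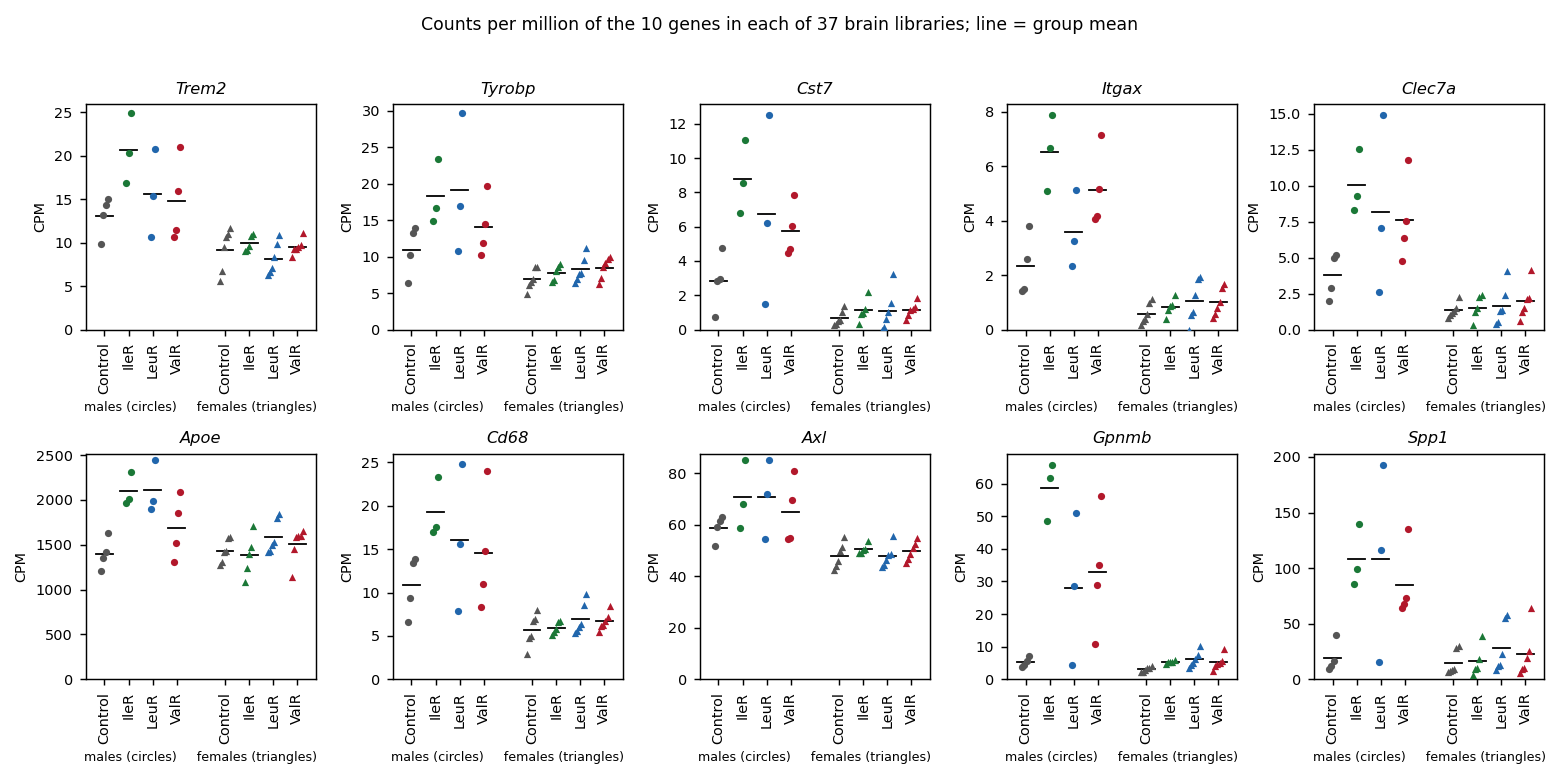
CPM (linear axes from 0) of each of the 10 genes in each library, by diet, with males as circles and females as triangles and a line at the group mean. In males Gpnmb and Spp1 stand above every Control library in each restricted library except LeuR 21, while the female groups overlap except Gpnmb in IleR.

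Gpnmb, a transmembrane glycoprotein of lysosomes in phagocytes that take up lipid, had the largest log2 fold change of the 10 under IleR and ValR, and stood second to Spp1 under LeuR. Its male Control libraries held 3.87, 4.26, 5.62 and 7.14 CPM, and the IleR libraries 65.9, 48.4 and 61.6 CPM. The ValR libraries held 34.9, 56.3, 10.9 and 29.0 CPM, and the LeuR libraries 51.0, 28.6 and 4.28 CPM. IleR and ValR did not overlap Control, and LeuR did, through LeuR 21 alone. The log2 fold change was 3.49 ± 0.63 (SE) under IleR, 2.65 ± 0.59 under ValR and 2.39 ± 0.61 under LeuR, with adjusted p = 0.00291, 0.00584 and 0.0281 in edgeR's quasi-likelihood test. On the linear scale these were 11.2-fold, 6.27-fold and 5.24-fold.

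Spp1, which encodes the secreted phosphoprotein osteopontin, rose under the same 3 diets. Its Control libraries held 9.34, 12.2, 40.1 and 16.3 CPM, and the IleR libraries 140.1, 99.6 and 85.9 CPM. The ValR libraries held 67.4, 135, 64.4 and 73.3 CPM, and the LeuR libraries 193, 116 and 15.8 CPM. All IleR and ValR libraries were above Control 4, the highest Control library, while LeuR 21 lay inside the Control range. The log2 fold change was 2.49 ± 0.63 under IleR, 2.15 ± 0.60 under ValR and 2.46 ± 0.63 under LeuR, with adjusted p = 0.0171, 0.0192 and 0.0270 by edgeR.

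Itgax, the integrin CD11c, was called in IleR and ValR. Control libraries held 1.40, 1.48, 2.59 and 3.82 CPM, IleR libraries 7.88, 5.08 and 6.67 CPM and ValR libraries 5.17, 7.14, 4.16 and 4.06 CPM. Neither restricted group overlapped Control. The LeuR libraries, at 5.12, 3.25 and 2.33 CPM, did. The log2 fold change was 1.49 ± 0.35 under IleR and 1.15 ± 0.34 under ValR (adjusted p = 0.0126 and 0.0244, edgeR), and 0.60 ± 0.36 under LeuR (adjusted p = 0.309).

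Apoe, the main lipid carrier of the brain, made by astrocytes as well as by DAM microglia, rose under IleR and LeuR. Control libraries held 1205, 1417, 1631 and 1355 CPM, IleR libraries 2315, 2010 and 1968 CPM, and LeuR libraries 2442, 1897 and 1985 CPM. Every IleR and LeuR library was above every Control library, LeuR 21 among them. ValR libraries ran from 1309 to 2085 CPM and overlapped Control. The log2 fold change was 0.59 ± 0.15 under IleR, 0.57 ± 0.15 under LeuR and 0.28 ± 0.14 under ValR, with adjusted p = 0.0205, 0.0331 and 0.176 by edgeR. Of 8 astrocyte markers 2 rose and 1 fell under IleR, 1 and 1 under LeuR, and 3 and 1 under ValR, where Apoe was not called. The bicarbonate transporter gene Slc4a4 rose by 1.21, 0.60 and 1.35 on the log2 scale under IleR, LeuR and ValR (adjusted p = 0.0013, 0.0499 and 0.000185, edgeR). The glutamate transporter gene Slc1a2 fell by 0.97, 0.95 and 1.08, and the channel gene Aqp4 rose by 1.36 under IleR and 1.21 under ValR. The shares of all genes are those given for the 10 genes above, and 8.68%, 6.33% and 12.4% for genes that fell. The part of astrocytes in the Apoe values was not tested.

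The receptor Trem2, its adaptor Tyrobp and the fungal glucan receptor Clec7a (dectin-1) missed the threshold in each male comparison. Trem2 in Control libraries was 9.81, 13.2, 15.1 and 14.3 CPM, and 24.9, 16.9 and 20.3 CPM under IleR. The groups did not overlap, with a log2 fold change of 0.66 ± 0.25 (adjusted p = 0.0888, edgeR), while those under LeuR and ValR, 0.23 ± 0.25 and 0.18 ± 0.23, were within their error. Tyrobp had log2 fold changes of 0.75 ± 0.32, 0.79 ± 0.32 and 0.37 ± 0.31 under IleR, LeuR and ValR (adjusted p = 0.142, 0.137 and 0.425). Clec7a in Control libraries was 2.00, 2.90, 5.17 and 4.98 CPM and under IleR 12.5, 9.29 and 8.32 CPM, without overlap. Its log2 fold change of 1.42 ± 0.47 under IleR had adjusted p = 0.0581, beside 1.10 ± 0.47 under LeuR and 1.02 ± 0.45 under ValR (adjusted p = 0.152 and 0.118, edgeR). Axl, a receptor kinase that binds dying cells through bridging ligands, ranged from 51.8 to 85.2 CPM in all male libraries, and its log2 fold changes of 0.26 ± 0.16, 0.24 ± 0.16 and 0.15 ± 0.15 were the smallest of the 10 genes under IleR and ValR.

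Cst7, the cysteine protease inhibitor cystatin F, had log2 fold changes of 1.63 ± 0.57, 1.22 ± 0.57 and 1.02 ± 0.54 under IleR, LeuR and ValR, with adjusted p = 0.0718, 0.190 and 0.199 by edgeR. Its Control libraries held 0.734, 2.84, 2.97 and 4.76 CPM and its IleR libraries 11.0, 6.79 and 8.55 CPM. LeuR ranged from 1.5 CPM in LeuR 21 to 12.5 CPM in LeuR 19, wider than the Control range. Cd68, a lysosomal membrane protein of macrophages, had log2 fold changes of 0.84 ± 0.38, 0.55 ± 0.38 and 0.43 ± 0.36 with adjusted p = 0.158, 0.381 and 0.427. Counted over the 10 genes, the libraries did not overlap Control and were higher in 9 genes under IleR, all but Axl, in 1 under LeuR, Apoe, and in 3 under ValR, Itgax, Gpnmb and Spp1. Of all genes tested, 14% were higher without overlap under IleR, 8.11% under LeuR and 12.1% under ValR.

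**Figure D2:**
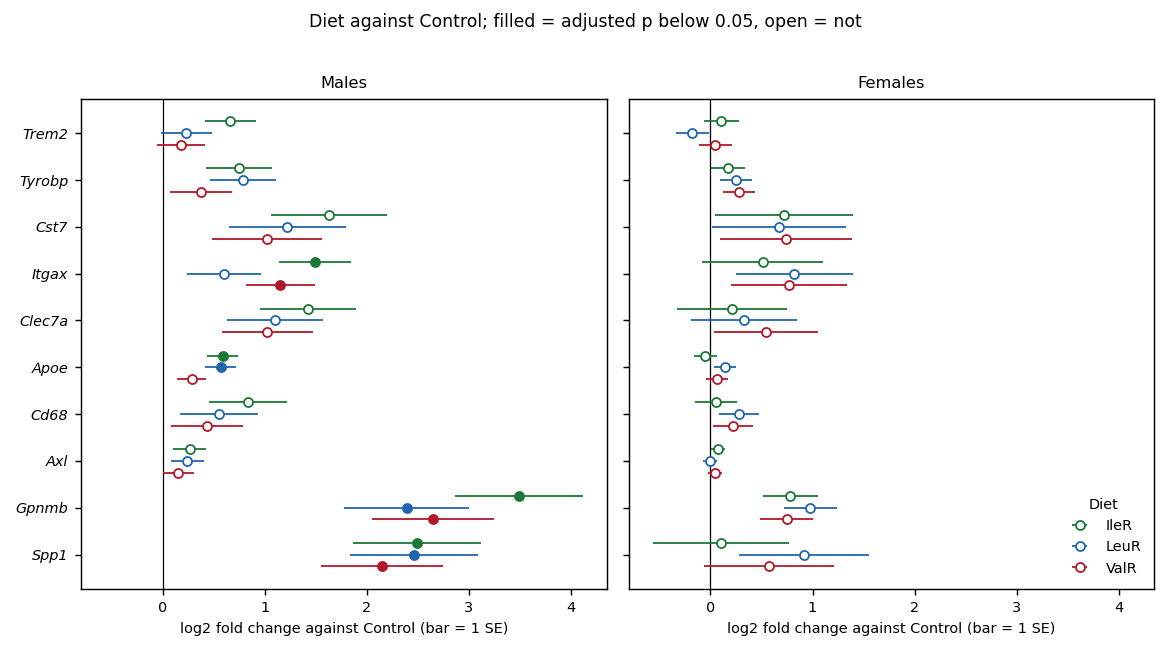
Log2 fold change against Control of each of the 10 genes under IleR, LeuR and ValR, males at the left and females at the right, with bars of 1 SE, filled points at adjusted p below 0.05 and open points above it. The filled points are all in males, led by Gpnmb from 2.39 to 3.49 and Spp1 from 2.15 to 2.49, while the highest female point is Gpnmb under LeuR at 0.98.

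LeuR 21 widened the LeuR group. Without it, 6 of the 10 genes passed edgeR's test under IleR, 6 under LeuR and 4 under ValR, and of all genes in that fit 8.38%, 7.09% and 13.3% rose, also more than with it. Under IleR 6 passed without LeuR 19 as well, where 6.71% of all genes rose. Under LeuR they were Gpnmb (log2 fold change 2.92), Spp1 (2.99), Cst7 (1.71), Clec7a (1.54), Tyrobp (1.09) and Apoe (0.62), with adjusted p from 0.00299 to 0.0342. Without LeuR 19 or without LeuR 20 none of the 10 passed under LeuR, and the same held without Control 1, Control 3 or Control 5, fits in which 0.631% to 2.4% of all genes rose. Without LeuR 19 the log2 fold change under LeuR was 1.61 ± 0.61 for Gpnmb, 1.75 ± 0.63 for Spp1 and 0.46 ± 0.17 for Apoe (adjusted p = 0.170, 0.148 and 0.149, edgeR). Under IleR only 1 gene, Gpnmb, passed without IleR 13, and 2 passed without Control 1, where 4.33% and 3.71% of all genes rose. Under ValR only 1 passed without Control 1 or without Control 3, where 7.66% and 8.11% of all genes rose. Gpnmb under IleR and under ValR kept its call in each of the 14 fits that left out 1 male library, with adjusted p no higher than 0.0139 and 0.0222.

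No difference between restricted diets passed the threshold in these genes in males. In edgeR's test none of the 10 passed in ValR against IleR, ValR against LeuR or IleR against LeuR, where 0%, 2.75% and 0% of all genes did, and none passed with DESeq2 or limma voom. At an unadjusted p under 0.05 there was 1 gene, Itgax, higher in IleR than in LeuR as were 6.56% of all genes, so 1 of 10 is near the background, with a log2 fold change of 0.89 ± 0.38 (unadjusted p = 0.0341, adjusted p = 0.415, edgeR). Gpnmb had 1.10 ± 0.63 in the same comparison and -0.84 ± 0.58 in ValR against IleR, and the errors leave room for differences of that size.

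The region of brain in the sample moved with diet in males. To follow it, every library was given a hindbrain score. It averages the mean log2 CPM of 8 cerebellum genes and that of 8 genes of the brainstem and spinal cord, and subtracts the mean of 8 forebrain genes. The score ran from -8.72 to -6.26 in male Control, from 1.07 to 3.94 in IleR, from 4.09 to 5.28 in ValR and from -4.39 to 3.49 in LeuR, without overlap between Control and any restricted group. The summed level of the cerebellum genes was 11.7 to 40.3 CPM in Control and 1163 to 3820 CPM in ValR, and that of the forebrain genes 743 to 1974 CPM in Control and 38.4 to 163 CPM in ValR. Of the cerebellum genes 8, 7 and 8 of 8 rose under IleR, LeuR and ValR, of the brainstem and spinal cord genes 4, 5 and 7 of 8, and of the forebrain genes 7, 5 and 7 of 8 fell. LeuR 21, at the level of Control in Gpnmb and Spp1, was also the restricted library with the lowest score, -4.39. With the score as a covariate none of the 10 genes passed under any diet, in a fit that called almost nothing, 3, 12 and 0 of the 22197 genes under IleR, LeuR and ValR, so the loss is not particular to the 10 genes. In it 6 of the 10 called log2 fold changes turned below 0. Gpnmb under IleR was then 0.20 ± 1.23 (adjusted p = 0.983) and Spp1 under ValR was -2.28 ± 1.29 (adjusted p = 0.728). Diet and hindbrain content cannot be told apart in these males.

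**Figure D3:**
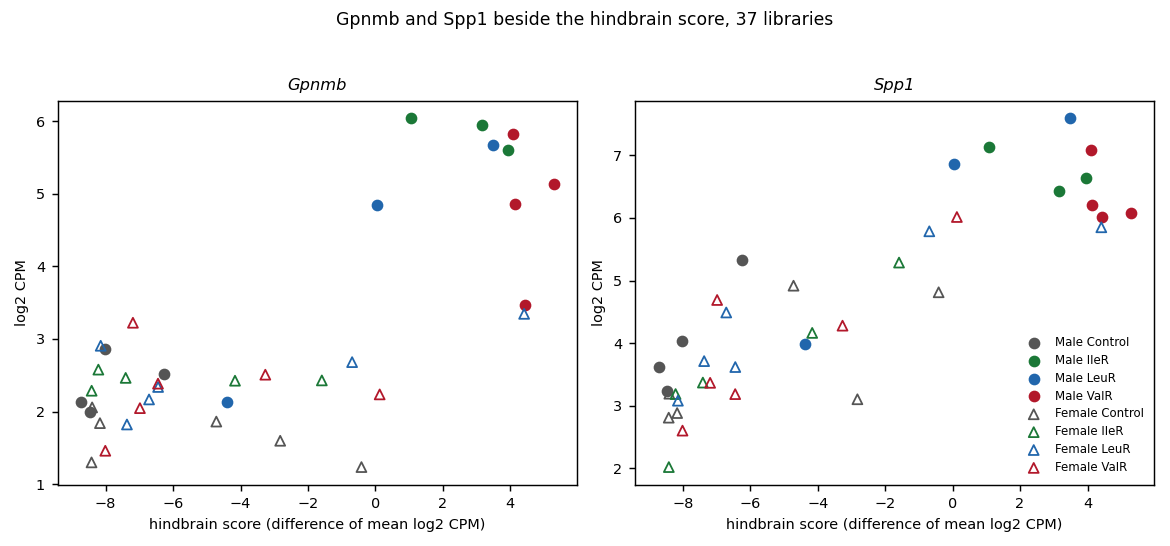
Log2 CPM of Gpnmb and Spp1 against the hindbrain score (a difference of mean log2 CPM), 1 point per library, with filled circles for males and open triangles for females and colours for diet. The male Control libraries lie at -6.26 or lower and the restricted males except LeuR 21 above 0. Within female diets Spp1 follows the score (r = 0.82) and Gpnmb much less (r = 0.25).

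The female scores overlapped between all diets and ran from -8.42 to -0.42 in Control, from -8.41 to -1.59 in IleR, from -8.15 to 4.41 in LeuR and from -8.01 to 0.13 in ValR. With the diet means removed, Spp1 followed the score over the 23 female libraries, with Pearson r = 0.82 and Spearman rho = 0.78 (permutation adjusted p = 0.0006 and 0.0002 over 20 relations, two-sided, libraries permuted within diets). Without the 2 libraries farthest from the median score, LeuR 45 and ValR 36, r was 0.79. Gpnmb had r = 0.25 and rho = 0.16 (adjusted p = 0.518 and 0.724), and r fell to 0.00095 without those 2 libraries. LeuR 45, with a score of 4.41, inside the range of the ValR males, held 10.0 CPM of Gpnmb, the highest of the females, and 57.5 CPM of Spp1. In males, with 14 libraries, the relation of Spp1 to the score had r = 0.78 and rho = 0.54 (adjusted p = 0.168 and 0.306) and dropped to r = 0.28 without LeuR 21 and LeuR 19, on which it rested. That of Gpnmb had r = 0.70 and rho = 0.39 (adjusted p = 0.229 and 0.405) and dropped to -0.01 without the same 2 libraries.

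The homeostatic genes of microglia were lower in part in males. Of 13 listed, 4 fell under IleR, none under LeuR and 9 under ValR, and none rose, with median log2 fold changes of -0.50, -0.33 and -0.68. Of all genes tested 8.68%, 6.33% and 12.4% fell in those diets. The purinergic receptor P2ry12 fell by 1.17 on the log2 scale under IleR and by 1.53 under ValR (adjusted p = 0.0417 and 0.00459, edgeR). The adhesion ligand Selplg fell by 0.78 and 1.02 in those diets, and Tmem119 by 1.04 and 1.24, while Cx3cr1, the fractalkine receptor, fell by 0.68 and Csf1r, the receptor of the growth factor that microglia need, by 0.65 under ValR. The summed level of the list was 420 to 487 CPM in Control, 302 to 483 in IleR, 376 to 444 in LeuR and 256 to 409 in ValR. Under LeuR 4 of the 13 were lower at an unadjusted p under 0.05 in edgeR's test, beside 13.5% of all genes, and other tools were not run on this list. In females the sum was lowest in Control 30 and LeuR 45, at 196 and 220 CPM, the females with the highest cerebellum sums. In males a lower level of these genes under a restricted diet cannot be told apart from hindbrain content, which moved with diet.

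Of 22 other genes of the DAM program, 3 rose under IleR, the lysosomal protease Ctsd (log2 fold change 0.82, adjusted p = 0.0354), the hypoxia factor Hif1a (0.79, adjusted p = 0.00217) and the protease Ctsl (0.40, adjusted p = 0.0160), by edgeR, beside 6.63% of all genes. None passed under LeuR, where 6 were higher and 1 lower at an unadjusted p under 0.05, beside 13.6% and 13.5% of all genes. Under ValR Hif1a rose by 0.90 and the lipoprotein lipase Lpl fell by 1.21 (adjusted p = 0.000309 and 0.0134), beside 11.1% of all genes higher and 12.4% lower, so neither count is above the background. The median log2 fold change of the 22 was 0.44, 0.38 and 0.30, and single genes ran from -0.89 to 1.70, from -0.80 to 1.73 and from -1.21 to 1.22 under IleR, LeuR and ValR. The difference from the 10 genes was not tested. Among 10 genes that act with or below TREM2, such as the kinase Syk and the phospholipase Plcg2, only the adaptor Blnk passed, and it fell under IleR, LeuR and ValR by 1.47, 1.46 and 2.03. Beside the 8.68%, 6.33% and 12.4% of all genes that fell, 1 of 10 is near the background.

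**Figure D4:**
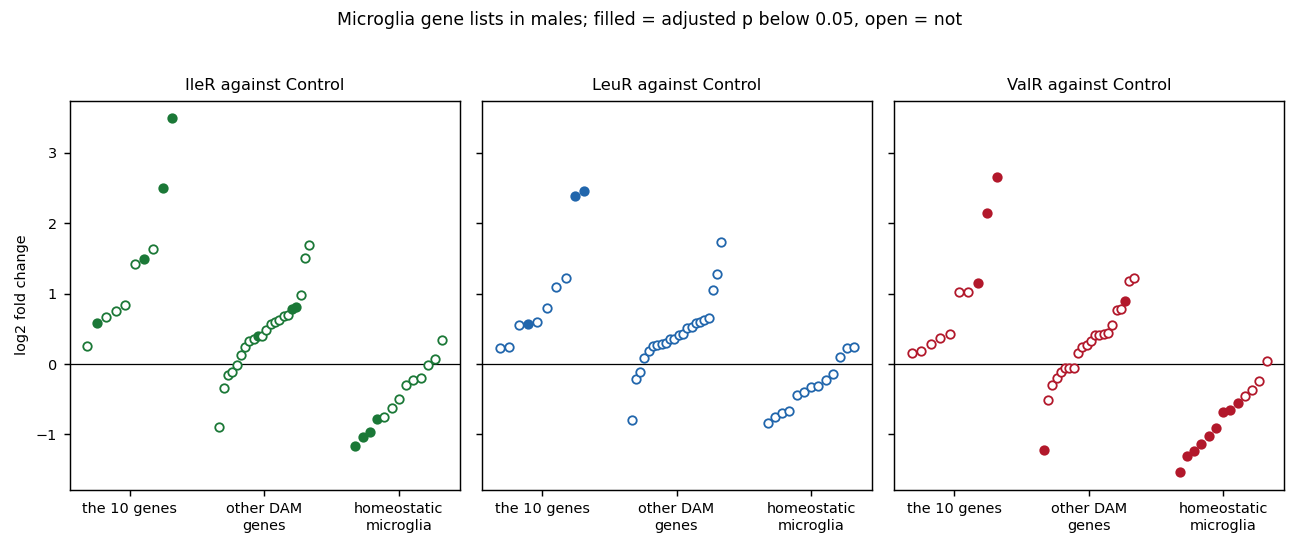
Log2 fold change in males of the 10 DAM genes, 22 other DAM genes and 13 homeostatic microglia genes under each restricted diet, 1 point per gene in rank order, filled at adjusted p below 0.05. The 10 genes lie above 0 under each diet, the homeostatic genes mostly below 0, with 9 filled under ValR, and the other DAM genes on both sides.

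Other macrophages and blood cells express several of the 10 genes. Of 8 genes of border macrophages 1 passed in each male comparison, the scavenger receptor Stab1, which fell by 0.90, 0.84 and 1.26 under IleR, LeuR and ValR. With 8.68%, 6.33% and 12.4% of all genes lower, 1 of 8 is near the background. The summed level was 26.2 to 66.0 CPM in Control and 13.7 to 33.3 CPM in the restricted groups. Of 9 genes of blood leukocytes 2 rose in each, the dendritic cell genes Zbtb46 and Flt3 under IleR and ValR and the neutrophil genes S100a8 and S100a9 under LeuR, beside 6.63%, 11.1% and 3.81% of all genes. Under IleR 4 of the 9 were above 0, with a median of -0.02. The summed level was 22.7 to 35.7 CPM in Control, 53.0 to 83.5 CPM in IleR and 66.4 to 96.8 CPM in ValR, both above every Control library, and 21.4 to 272 CPM in LeuR, where LeuR 21 was the lowest. In females it was highest in Control 30 and LeuR 45, at 95.2 CPM or more, the libraries with the highest cerebellum sums, 3919 and 3728 CPM. The 5 red cell genes did not pass in any diet and summed to 570 to 4079 CPM in Control and to 1076 to 19859 CPM in the restricted groups, the highest in LeuR 19, which was also the highest of all libraries in 7 of the 10 genes, all but Trem2, Itgax and Gpnmb. At an unadjusted p under 0.05 all 5 red cell genes were higher under LeuR, beside 13.6% of all genes. None of the oligodendrocyte, endothelial, meningeal fibroblast or choroid plexus genes passed. Of the 6 oligodendrocyte genes, which make myelin, 4, 5 and 3 were higher at an unadjusted p under 0.05 under IleR, LeuR and ValR, beside 14.8%, 13.6% and 17.7% of all genes, and their median log2 fold changes were 0.63, 0.73 and 0.55. Their summed level was 4470 to 9473 CPM in Control and 9836 to 14927 CPM in IleR, without overlap, and 9054 to 16500 CPM in ValR. In LeuR it was 18239 CPM in LeuR 19, the highest of all male libraries, 14850 CPM in LeuR 20 and 6328 CPM in LeuR 21, inside the Control range. Of 4 motor and cholinergic neuron genes tested 2 rose under each of IleR, LeuR and ValR, beside 6.63%, 3.81% and 11.1% of all genes. Of 6 pan-neuronal genes 1, 1 and 2 fell, beside 8.68%, 6.33% and 12.4%. In females no gene of any of these lists passed against Control. The part of these cells in the 10 genes was not tested.

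In females none of the 10 genes passed edgeR's test under any diet. Neither did any of the 20344 genes tested (0%, 0% and 0% under IleR, LeuR and ValR), and none of the 10 passed with DESeq2 or limma voom. At an unadjusted p under 0.05 the 1 gene of the 10 that was higher was Gpnmb, under each diet, beside 1.36%, 2.27% and 2.85% of all genes under IleR, LeuR and ValR. These comparisons share the 6 female Control libraries, so their likeness is partly built in. The female Control libraries held 2.23 to 4.04 CPM of Gpnmb, median 3.18, and the IleR libraries 4.76, 5.25, 5.26, 5.39 and 5.85 CPM. LeuR ran from 3.41 to 10.0 CPM, median 5.61, and ValR from 2.63 to 9.22 CPM, median 4.84. Each IleR library was above each Control library, and the others overlapped. The log2 fold change was 0.78 ± 0.27 under IleR, 0.98 ± 0.26 under LeuR and 0.75 ± 0.26 under ValR, with unadjusted p = 0.00845, 0.00112 and 0.00884 in edgeR's test and adjusted p = 1.00, 0.968 and 1.00. With the hindbrain score as a covariate these were 0.79 ± 0.26, 0.90 ± 0.26 and 0.73 ± 0.25. Of the 10 genes 1, Gpnmb, was higher without overlap under IleR and none under LeuR or ValR, where 0.108%, 0.128% and 0.0737% of all genes were.

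The other 9 genes had unadjusted p of 0.0937 (Tyrobp under ValR, edgeR) or more in females. Spp1 had a wide range within each group, 6.89 to 30.1 CPM in Control with a median of 8.75, 3.94 to 38.9 in IleR with a median of 10.2, 8.34 to 57.5 in LeuR with a median of 17.7 and 5.96 to 64.5 in ValR with a median of 14.7. Its log2 fold changes of 0.10 ± 0.67, 0.92 ± 0.64 and 0.57 ± 0.64 under IleR, LeuR and ValR were small beside that range. Axl was the most even, from 42.5 to 55.7 CPM over all 23 female libraries, with log2 fold changes between -0.00 and 0.07. Those of Apoe were -0.05 ± 0.12, 0.14 ± 0.11 and 0.07 ± 0.11, and those of Trem2 0.11 ± 0.17, -0.18 ± 0.16 and 0.05 ± 0.16. Cst7 and Itgax sat at the bottom of the range, at 0 to 52 and at 0 to 30 counts per library. In LeuR 47 both had 0 counts, which allows up to 0.197 CPM, and log2 fold changes of 0.51 to 0.82 for these genes came with SE of 0.57 to 0.67. The median log2 fold change of the 10 genes was 0.14, 0.30 and 0.41 under IleR, LeuR and ValR, beside -0.01, 0.00 and -0.01 over all genes tested. No difference between female restricted diets passed in any of the 10 genes (0 past the threshold and 0 at an unadjusted p under 0.05 in ValR against IleR, ValR against LeuR and IleR against LeuR by edgeR, DESeq2 and limma voom, where 0%, 0% and 0% of all genes passed the threshold).

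The difference between the sexes was tested itself, in 1 model of the 37 libraries, as the female log2 fold change minus the male one. None of the 10 genes passed for IleR, LeuR or ValR by edgeR or limma voom, beside 0.0979%, 0.00445% and 4.25% of all genes by edgeR. Gpnmb came closest, with -2.70 ± 0.62 for IleR and -1.89 ± 0.59 for ValR (adjusted p = 0.0573 and 0.0564, edgeR), and -1.44 ± 0.61 for LeuR (adjusted p = 0.307). Apoe had -0.63 ± 0.19 for IleR (adjusted p = 0.0966). By DESeq2 Gpnmb passed for IleR and ValR (adjusted p = 0.00317 and 0.0181) and Apoe for IleR (adjusted p = 0.0285). DESeq2 called 4.68% of all genes for IleR and 10.4% for ValR, so its 1 of 10 for ValR is near the background. At an unadjusted p under 0.05 there were 3 genes for IleR, Gpnmb, Apoe and Spp1, 2 for LeuR, Gpnmb and Apoe, and 1 for ValR, Gpnmb, all below 0. Of all genes 7.81%, 6.16% and 11% were below 0 at that threshold, so the 1 of 10 for ValR is near the background. With the hindbrain score as a covariate Gpnmb was at adjusted p = 0.523 for IleR and 0.717 for ValR, where that fit called none of the 22465 genes.

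On the Control diet most of the 10 genes were lower in females than in males, short of the threshold. At an unadjusted p under 0.05, 7 of the 10 were lower, beside 5.31% of all genes, and none passed edgeR's adjusted threshold, beside 0.178% of all genes. The largest were Cst7 at -2.04 ± 0.65, Itgax at -1.98 ± 0.53 and Clec7a at -1.50 ± 0.53 on the log2 scale (adjusted p = 0.238, 0.135 and 0.324), followed by Cd68 at -0.92 ± 0.28. Tyrobp, Trem2 and Axl were at -0.66 ± 0.23, -0.51 ± 0.20 and -0.29 ± 0.11. Itgax held 1.40 to 3.82 CPM in the 4 male and 0.174 to 1.11 CPM in the 6 female Control libraries, without overlap, as did 0.877% of all genes. It passed with DESeq2 (adjusted p = 0.0203) and with the hindbrain score as a covariate (adjusted p = 0.0477). Apoe, at 0.03 ± 0.13, Spp1 at -0.39 ± 0.68 and Gpnmb at -0.76 ± 0.42 had unadjusted p of 0.0798 or more (edgeR). The summed level of the cerebellum genes ran from 13.1 to 3919 CPM in the female and from 11.7 to 40.3 CPM in the male Control libraries. Sums of other lists were also lower in female Control, that of the astrocyte genes at 3176 to 3645 CPM against 3730 to 4812 CPM, without overlap. The median sum was 378 against 445 CPM for homeostatic microglia, 20.3 against 40.3 CPM for border macrophages and 412 against 2644 CPM for red cells. The part of these cells in the difference was not tested. The male and female counts come in separate tables, and sex and any difference in how these were made cannot be told apart.

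With diet means removed, 44 of the 45 pairs passed (Pearson, permutation adjusted p under the threshold, 14 libraries), and r ran from 0.56 to 0.97 with a median of 0.83. The highest were Tyrobp with Clec7a, Tyrobp with Cd68 and Clec7a with Cd68, each at 0.97, and the pair of Apoe with Gpnmb, at r = 0.61 and rho = 0.60 (adjusted p = 0.0507 and 0.0599), missed. Without the 2 libraries farthest from the median of the gene on the x axis, r ran from 0.41 to 0.97 with a median of 0.78. By Spearman's rho 44 pairs passed. Pairs of other genes were not tested, so nothing particular to these 10 is read from the count, and the same libraries also differed in other cell types, as in the oligodendrocyte sums of 18239 CPM in LeuR 19 and 6328 CPM in LeuR 21.

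In the 23 female libraries 10 of the 45 pairs passed by Pearson's r and 7 by Spearman's rho, and r ran from -0.42 to 0.87 with a median of 0.40. Trem2 went with Cd68 (r = 0.87, rho = 0.76, adjusted p = 0.00135 and 0.0149), with its adaptor Tyrobp (r = 0.64, rho = 0.68, adjusted p = 0.0345 and 0.0228) and with Apoe (r = 0.49, rho = 0.57, adjusted p = 0.0345 and 0.0485), while the pairs among Cd68, Tyrobp and Apoe missed the threshold by Pearson's r. Cst7, Itgax, Clec7a and Gpnmb made all 6 of their pairs by Pearson's r, from 0.585 for Clec7a with Gpnmb to 0.80 for Cst7 with Itgax, and by Spearman's rho the 3 pairs that hold Gpnmb missed (adjusted p from 0.0569 to 0.0609). Spp1 joined Clec7a alone (r = 0.61, rho = 0.62, adjusted p = 0.0345 and 0.0453). Each of these pairs kept r at 0.42 or more without the 2 farthest libraries. Over all 45 female pairs r without those libraries ran from -0.33 to 0.81.

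**Figure D5:**
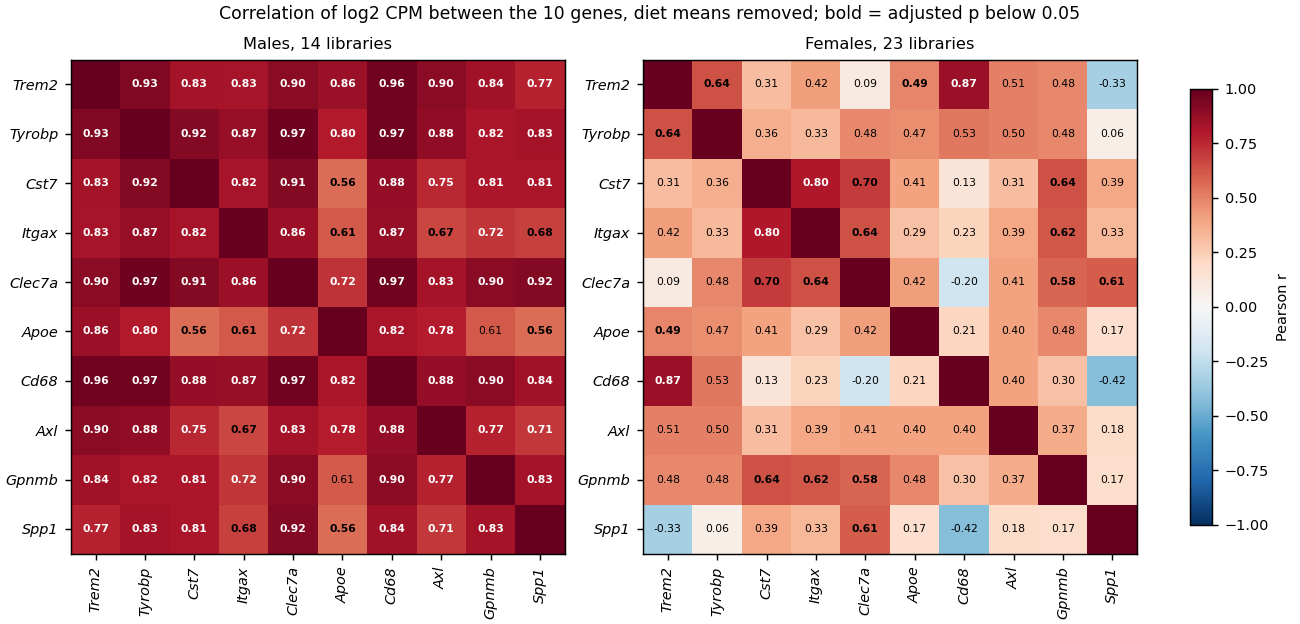
Pearson r of log2 CPM between each pair of the 10 genes with diet means removed, 14 male libraries at the left and 23 female libraries at the right, on a colour scale from -1 to 1 with bold numbers at adjusted p below 0.05. Males show 44 bold pairs of 45, and females 10, among them Trem2 with Tyrobp, Apoe and Cd68 and all pairs of Cst7, Itgax, Clec7a and Gpnmb.

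Cd68 followed the homeostatic microglia genes across female libraries (r = 0.69, rho = 0.63, permutation adjusted p = 0.0221 and 0.0420, and r = 0.58 without Control 30 and LeuR 45). Trem2 had r = 0.64 and rho = 0.63 (adjusted p = 0.0658 and 0.0469, and r = 0.62 without the same 2 libraries). Spp1 went against them (r = -0.74, rho = -0.64, adjusted p = 0.0008 and 0.0115, and r = -0.73 without the same 2). The homeostatic genes and the hindbrain score also changed together in these libraries: Control 30 and LeuR 45 held the lowest homeostatic means of the females, 3.21 and 3.26 log2 CPM, at scores of -0.42 and 4.41. Gpnmb had r = -0.08 and rho = 0.01 (adjusted p = 0.787 and 0.963, and r = 0.00106 without the same 2).

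The genes most like the 10 were ranked within each sex by Pearson r with their mean z-score, diet means removed. In males, over 14 libraries and 13944 genes, they were Osmr, Mpeg1, Ctsd, Cd52, Mt2, Carns1, C1qa and Ctss, with r from 0.97 to 0.99. Mpeg1 is a pore-forming protein of macrophages, C1qa a chain of complement C1q made by microglia, and Ctsd and Ctss lysosomal proteases. These r are the highest of 13944 genes over 14 libraries, and none was computed without LeuR 19 and LeuR 21. In females, over 23 libraries and 13871 genes, they were Pros1, Pbxip1, AU020206, Fyco1, Ctsd, Dmpk, Syngr2 and Timp3, with r from 0.79 to 0.87. Pros1 encodes protein S, a bridging ligand of the receptor family of Axl. Ctsd was in both lists. The genes described are not all of either list, and the cells behind the lists were not tested.

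The share of the within-group variance that counting error alone would give ran from 0.152% for Apoe to 14.1% for Itgax in males. In females it ran from 0.272% for Apoe to 22.6% for Tyrobp. The spread between libraries was thus wider than the depth of sequencing sets.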

How the data were processed

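RNA was sequenced from 3xTg brains, and 37 of the 47 labelled libraries were analysed, while 10 male libraries were not analysed here. The study's methods state that outlying libraries were taken out after a principal component analysis. The labels name poly(A) mRNA in one place and total RNA in another. The authors deposited RSEM expected counts per gene for each sex, with reads aligned to GRCm38.p5. The submitters' processing notes name R 3.4.3, edgeR, limma and GRCm38, and the aligner is not given in the sources used here. Deposited tables of the authors' own comparisons, which hold log2 fold changes and p-values, were not used.

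The 10 genes, the other gene lists and the tests were chosen with earlier results of these data known. Expected counts were rounded to whole numbers, since 4.23% of male and 4.09% of female values were not whole. A gene was kept where some diet group had 1 count or more in each of its libraries, 22197 in males, 20344 in females and 22465 in both together, and all 10 genes passed. Each sex was fitted with its 4 diets in 1 model in edgeR 4.0.16 (R 4.3.3) with TMM factors and the quasi-likelihood test, and p-values were adjusted by Benjamini-Hochberg over all genes, with a threshold of 0.05. Interactions and the comparison of the sexes came from a model of all 37 libraries. The SE is the log2 fold change divided by the square root of its F. Log2 CPM used a prior count of 2. Correlations were tested by 100000 two-sided permutations within diets. The smallest chi-square per degree of freedom among 73 replicate pairs was 9.09, so no library was taken as a repeat of another. Alternatives were DESeq2 1.42.0, limma 3.58.1 with voom, RLE factors, other filters, covariates, fits of only the groups compared, and leaving out each library. From other lists the text names at most 4 called genes per list and comparison, those with the highest level, and 8 genes most like the 10 in each sex. Tmem119 was named by this rule for IleR, and its value under ValR, outside the rule, was added after it was seen. The test was tried on simulated data. Gene positions came from GENCODE M21 and sequences from RefSeq tables on GRCm38.p6. The floor given for 0 counts covers counting error only, while each SD and SE also holds the spread between libraries. One allele of the model and one listed marker gene are not reported here.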

Additional observations from a re-analysis of the deposited data

Results flagged for a closer look

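Apoe in 1 female ValR library, ValR 35, lay far below the other 5 ValR females, at 10.16 on the log2 CPM scale or 1141 CPM, with a gap to its nearest neighbour of 0.648 of the group's range. It was the 1 flagged group of 60 tested for a library that stands apart, and chance flags about 1 in 20 groups.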

How the results depend on the processing

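The calls in males changed when the hindbrain score was put in the fit and when single libraries were left out. With the hindbrain score as a covariate the number of the 10 genes called fell from 4 to 0 under IleR, from 3 to 0 under LeuR and from 3 to 0 under ValR, in a fit that called 0.0135%, 0.0541% and 0% of all genes higher, and the log2 fold changes that turned below 0 were those of Gpnmb under LeuR (-0.50) and ValR (-1.26), Itgax under ValR (-0.088) and Spp1 under IleR (-1.17), LeuR (-0.75) and ValR (-2.28). With the homeostatic microglia score as a covariate 1 gene passed under IleR and 0 under ValR, beside 0.365% and 0% of all genes. Under LeuR 1 passed with the choroid plexus score, 1 with limma voom and 0 with only the groups compared in the fit, beside 3.13%, 3.91% and 0%. That last alternative added Clec7a and Trem2 under IleR (0.0241 and 0.0447), where 6.16% of all genes were called higher. Spp1 under IleR was also lost with the choroid plexus score (adjusted p = 0.0549) and Gpnmb under ValR with limma voom (0.0516), while DESeq2 added Clec7a and Cst7 under IleR (0.0209 and 0.0269), where it called 8.36% of all genes higher. Leaving out 1 library at a time gave 1 to 6 genes under IleR, 0 to 6 under LeuR and 1 to 4 under ValR. It gave 0 to 2 for the interaction with IleR, 0 to 1 for that with ValR, 0 to 0 for that with LeuR, and 0 to 1 for Control females against males, where the 1 came without LeuR 47. For the interaction with IleR 1 gene passed with the filter of CPM of at least 1, 2 with DESeq2 and 1 with the microglia score, beside 0.377%, 4.68% and 0.761% of all genes, and for that with ValR 1 passed with that filter and 1 with DESeq2, beside 7.62% and 10.4%. For Control females against males 1 passed with DESeq2 and 1 with the hindbrain score, beside 0.703% and 0.454%. In females no alternative gave a call against Control. Without centring on diet means 5 genes followed the hindbrain score in males by Pearson's r in place of 0, and 0 by Spearman's rho. The cause of these changes was not tested. RLE factors changed no call, and dropping the filter changed none where it was run. Adjusted p over 23 alternatives ran from 1.49e-07 to 0.983 for Gpnmb under IleR, with 22 called, from 0.000916 to 0.928 under LeuR, with 14 called, and from 1.47e-05 to 0.843 under ValR, with 20 called. For Spp1 17, 14 and 18 of 23 were called under IleR, LeuR and ValR, for Itgax 20 and 17 under IleR and ValR, and for Apoe 16 and 13 under IleR and LeuR. No paired analysis was possible because the labels number the libraries once through the series, so that groups share no replicate number.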
